A study of Mus musculus with 18 samples.

Results

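The genes described here encode integrin subunits and laminin chains of the mouse. They were matched by symbol: Itga followed by a number or by D, E, L, M, V or X, Itgb1 to Itgb8, and the Lama, Lamb and Lamc genes. The text covers 36 genes that the rule found among the 23652 entries of the expression table, and the rule itself uses no measured value. Of the 36 genes, 18 encode integrin alpha subunits, 8 encode integrin beta subunits and 10 encode laminin chains.

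Integrins are cell-surface receptors made of one alpha and one beta subunit, and the pair decides what the receptor binds. Laminins are trimers of an alpha, a beta and a gamma chain, and they form the sheet of basement membrane on which thyroid follicles and other epithelia rest. Epithelial cells hold on to laminin mainly through the receptors alpha3 beta1 and alpha6 beta4, while the beta2 and beta7 integrins are known from leukocytes.

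RNA was sequenced from thyrocytes sorted by their yellow fluorescent protein (YFP), taken at 20 weeks and given as naive to treatment. All 15 tumour libraries carry BrafV600E, an activating change in the kinase Braf. Of these, 4 carry no Tert allele (Braf tumours), 7 also carry Tert-123C>T, a change upstream of the telomerase gene Tert (Tert-123 tumours), and 4 also carry K5-Tert, a transgene that expresses Tert from the promoter of keratin 5 (K5-Tert tumours). The remaining 3 libraries lack BrafV600E and are pools of samples, 1 each of wild-type, Tert-123C>T and K5-Tert genotype, which the labels list under the same tumour source as the rest. The labels give neither the number of mice in a pool nor the promoter behind BrafV600E or YFP. They do not say that libraries of a genotype came from separate animals, so a p-value measures the spread between these libraries, which may be technical.

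No header or label names the unit of the values, which were taken as TPM (transcripts per 1000000). TPM is a level corrected for transcript length, and on that reading levels can be set side by side between genes. The number of reads behind each library is unknown, and no counting interval can be given. The noncoding RNA Rpph1 alone held 43.7% to 68.8% of a library's total, and 10958 to 15045 genes reached 1 TPM. Tert, the gene the alleles alter, was at 4.96, 4.49, 5.12 and 3.78 TPM in the Braf tumours, at 2.65 to 6.23 TPM in the Tert-123 tumours and at 73.9, 11.2, 18.97 and 53.4 TPM in K5-Tert tumours 1 to 4; the first pair of ranges overlapped and the K5-Tert tumours lay above both. K5-Tert tumours 2, 3 and 4 stood apart from the other tumours, where the nuclear RNA Malat1 reached 1191, 1908 and 1050.1 TPM, against 5072 to 8420 TPM in the other 12. Thyroglobulin (Tg), the defining product of thyroid follicular cells, was at 25676 to 31240 TPM in the pools and at 81.9 to 510.5 TPM in the tumours, and a sum of 5 alveolar type 2 genes of the lung was at 4705 to 12518 TPM in the tumours and 7.34 to 77.2 TPM in the pools. As these are bulk libraries, fewer cells of a type and less RNA per cell cannot be told apart.

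Genes at 10 TPM or more in at least 4 libraries were tested on log2(TPM + 1) with limma, with p-values adjusted over all genes tested and a threshold of 0.05. In the tumours 17 of the 36 members passed that filter, and 19 passed when the pools were included. Fold changes are on the log2(TPM + 1) scale, which understates the change of low genes.

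With the Braf mutation, set against the 3 pools that lack it, the integrin subunits Itga3 and Itgb5 rose. The laminin chains Lama3 and Lamb1 fell, and the leukocyte subunits Itgb2 and Itgax rose most. Itgax passed the filter through the tumours alone. Of the 19 members tested 4 rose, 2 fell and 13 did not pass the test. Among all 7825 genes tested, 15.4% rose and 10% fell. The median difference of the 19 members was 0.42 on the log2 scale, against 0.07 for all genes tested. All 15 tumours lay below all 3 pools for 3 members (Lamb2, Lamb1 and Lama3), as for 5.69% of all genes tested. They lay above the pools for Itgam and Lama1 alone, neither of which passed the filter, where 5.71% of all genes tested did.

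**Figure D1:**
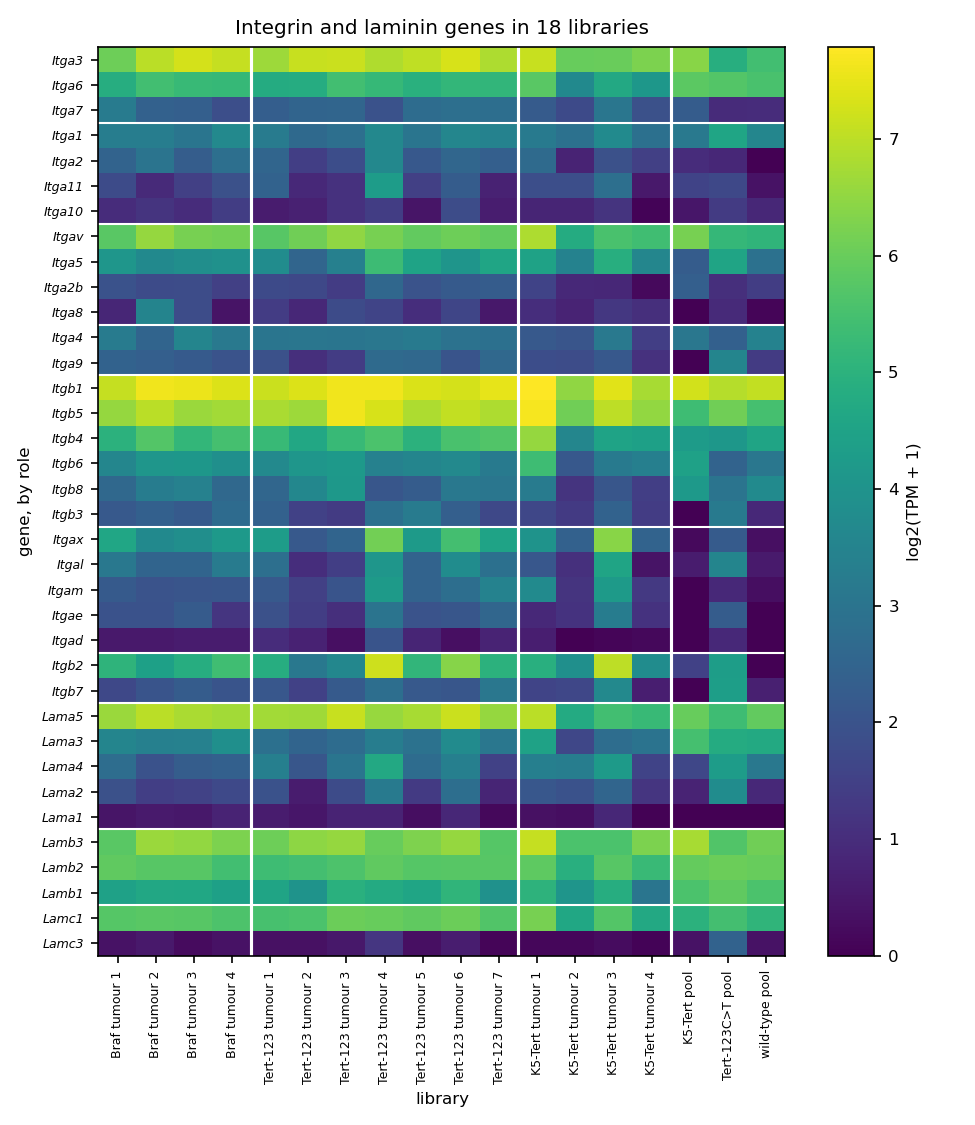
Level of the 36 integrin and laminin genes in each of the 18 libraries, as log2(TPM + 1) by colour; genes are grouped by role and ordered by mean level within a role, and white lines separate the roles and the groups of libraries. The highest levels belong to Itgb1, Itgb5, Itga3 and Lama5, and the leukocyte subunits Itgb2, Itgax and Itgal are highest in Tert-123 tumours 4 and 6 and K5-Tert tumour 3.

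Lama3 and Lamb3 encode an alpha and a beta chain of the laminin that anchors stratified and glandular epithelia. Lama3 was at 10.8, 9.48, 9.77 and 13.7 TPM in Braf tumours 1 to 4, 4.65 to 12.6 TPM (median 6.58) in the 7 Tert-123 tumours and 21.6, 2.13, 5.85 and 6.84 TPM in K5-Tert tumours 1 to 4. Lama3 in the wild-type, Tert-123C>T and K5-Tert pools was 25.6, 26.7 and 44.1 TPM, and every tumour lay below every pool. Across all 18 libraries, with the Tert allele fitted beside it, Lama3 fell by 1.82 with the Braf mutation (SE 0.38, limma adjusted p = 0.0011). Lamb3 was at 54.2, 97.3, 91.6 and 74.6 TPM in the Braf tumours, 52.1 to 92.9 TPM (median 77.1) in the Tert-123 tumours, 136, 46.8, 47.3 and 75.5 TPM in the K5-Tert tumours and 67.5, 50.004 and 108 TPM in the wild-type, Tert-123C>T and K5-Tert pools. The pools spanned much of the tumours' range for Lamb3, and its difference was 0.05 (SE 0.29, limma adjusted p = 0.921).

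Lama5, Lamb1 and Lamc1 encode the chains of laminin-511, a laminin of many mature epithelia and vessels. Lamb1 was at 20.8, 24.5, 23.7 and 20.5 TPM in Braf tumours 1 to 4, 14.2 to 33.4 TPM (median 22.9) in the Tert-123 tumours, 31.6, 15.7, 27.98 and 7.09 TPM in K5-Tert tumours 1 to 4 and 46.8, 57.7 and 46.9 TPM in the wild-type, Tert-123C>T and K5-Tert pools. All 15 tumours lay below all 3 pools, and Lamb1 fell by 1.24 with the Braf mutation (SE 0.31, limma adjusted p = 0.00499). The summed level of 9 endothelial markers was 24.2 to 247 TPM in the tumours and 646, 1903 and 215 TPM in the pools, in the same order. Unlike Lamb1, this sum overlapped, with the K5-Tert pool inside the range of the tumours. The part of endothelial cells in the fall of Lamb1 was not tested.

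Lama5 was at 96.6, 126, 109 and 103 TPM in Braf tumours 1 to 4, 93.1 to 143 TPM (median 103) in the Tert-123 tumours, 125, 26.1, 42.2 and 36.7 TPM in K5-Tert tumours 1 to 4 and 59.3, 40.3 and 62.3 TPM in the pools, in the same order. The Braf and Tert-123 tumours and K5-Tert tumour 1 lay above every pool, while K5-Tert tumours 2, 3 and 4 did not. The difference with the Braf mutation was 0.66 (SE 0.33) and missed the threshold (limma adjusted p = 0.157). Lamc1, which encodes the most widely used gamma chain, was at 51.7, 54.5, 53.4 and 47.4 TPM in the Braf tumours, 44.6 to 65.01 TPM (median 57.7) in the Tert-123 tumours, 71.9, 23.8, 51.4 and 25.1 TPM in the K5-Tert tumours and 33.1, 43.5 and 31.3 TPM in the pools. Its difference of 0.42 (SE 0.26) was also not past the threshold (limma adjusted p = 0.25). Set within a library, where the scaling of the library cancels, the ratio of Lama5 to Lamb1 was 1.51 to 6.77 in the tumours and 0.70 to 1.33 in the pools, without overlap; it was chosen after its values had been seen, so it is a description without a test.

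**Figure D2:**
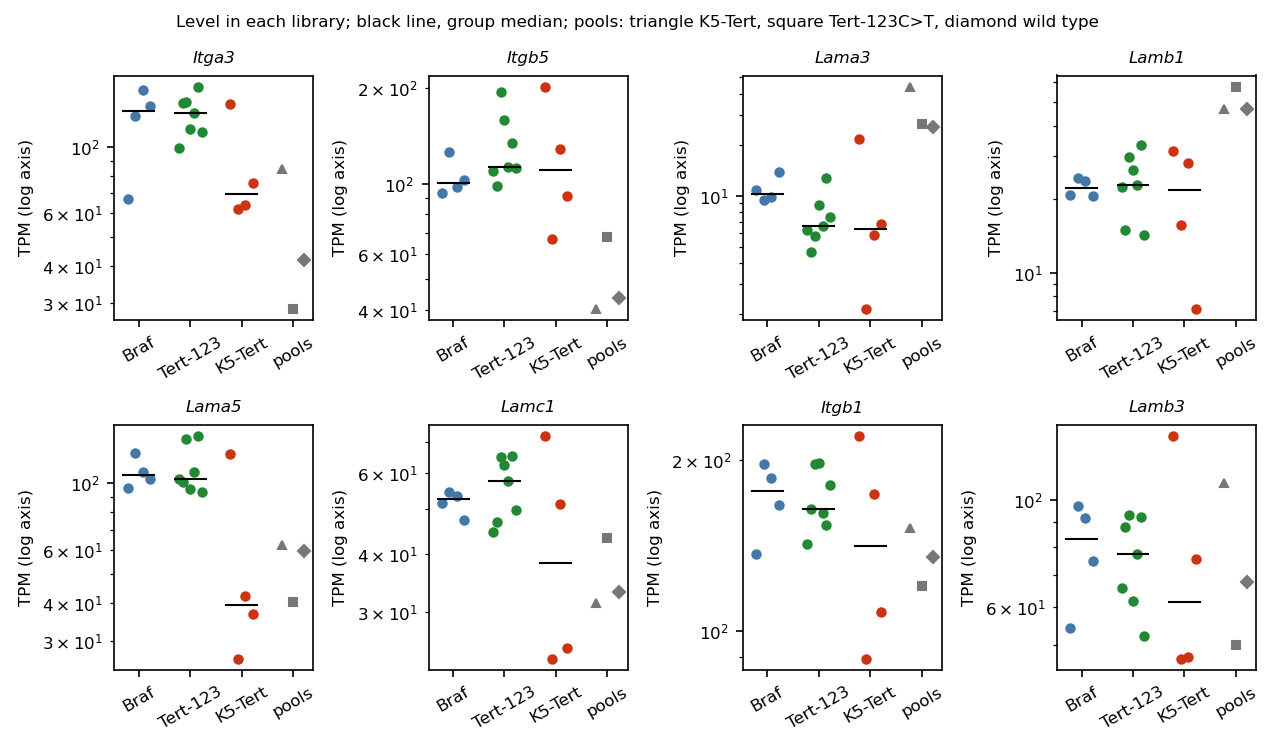
TPM on a log axis in every library for 8 members, with libraries as points, the median of each tumour genotype as a black line, and the 3 pools as separate symbols. Lama3 and Lamb1 lie below all pools in every tumour, and for Lama5 K5-Tert tumour 1 sits at 125 TPM with the Braf tumours while the other 3 sit between 26.1 and 42.2 TPM.

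Lamb2, the chain that replaces Lamb1 in laminin-521, was at 58.6, 53.7, 53.1 and 42.1 TPM in the Braf tumours, 40.5 to 58.5 TPM (median 52.1) in the Tert-123 tumours, 56.6, 29.3, 53.8 and 38.1 TPM in the K5-Tert tumours and 62.6, 64.6 and 60.9 TPM in the pools. The 15 tumours all lay below the pools, from just under them in Braf tumour 1 (58.6 TPM) down to 29.3 TPM in K5-Tert tumour 2, and the difference of -0.38 (SE 0.21) did not pass (limma adjusted p = 0.19). Over the 15 tumours the highest Lamb2 level was 2.001 times the lowest, the narrowest range of the 36 members.

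Lama4, Lama2, Lamc3 and Lama1 were low. Lama4, a chain of vessels, smooth muscle and nerve, was at 1.82 to 25.2 TPM in the tumours with its highest level in Tert-123 tumour 4, and at 7.70, 18.8 and 2.14 TPM in the pools. Lama2, the chain of muscle and peripheral nerve laminin, was under 10 TPM in every tumour (0.51 to 8.12 TPM) and reached 12.9 TPM in the Tert-123C>T pool, against 0.87 and 0.72 TPM in the wild-type and K5-Tert pools. Lama2 by tumour was 2.85, 1.70, 1.90 and 2.304 TPM in the Braf tumours, 0.51 to 8.12 TPM (median 2.45) in the Tert-123 tumours and 3.36, 2.86, 4.83 and 1.28 TPM in the K5-Tert tumours. Lamc3 reached at most 1.37 TPM in a tumour and 4.48 TPM in the Tert-123C>T pool. Lama1, the embryonic alpha chain, was listed at 0 in all 3 pools and at 0.02 to 0.82 TPM in the tumours, a level at which no comparison is drawn. The Tert-123C>T pool, which held the highest level of Lama2, Lama4 and Lamc3 among the pools, also held the highest sum of the endothelial markers (1903 TPM) and of 6 fibroblast markers (327 TPM against 33.4 and 34.8 TPM in the other pools), and their part in these levels was not tested.

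Itga3 encodes the alpha3 subunit, whose receptor with beta1 binds laminins of epithelial basement membranes. It was at 66.7, 126, 156 and 137 TPM in Braf tumours 1 to 4, 99.4 to 159 TPM (median 130.3) in the Tert-123 tumours, 139, 61.9, 63.8 and 75.7 TPM in K5-Tert tumours 1 to 4 and 41.8, 28.6 and 84.1 TPM in the pools. Braf tumour 1 and K5-Tert tumours 2, 3 and 4 lay below the K5-Tert pool, and all tumours lay above the other 2 pools. With the Braf mutation Itga3 rose by 1.19 (SE 0.32, limma adjusted p = 0.00733).

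Itga6, the alpha6 subunit that pairs with beta4 in hemidesmosomes, was at 28.1, 42.1, 37.1 and 36.5 TPM in the Braf tumours, 26.97 to 42.1 TPM (median 33.9) in the Tert-123 tumours, 54.5, 11.8, 24.9 and 16.4 TPM in the K5-Tert tumours and 46.2, 51.4 and 55.96 TPM in the pools. Only K5-Tert tumour 1 reached into the range of the pools. The difference of -0.75 (SE 0.30) missed the threshold (limma adjusted p = 0.0661), and passed it under a TMM-type scaling, which trims extreme genes before it sets the libraries' levels equal (-0.78, adjusted p = 0.00146). Its partner Itgb4 was at 31.4, 50.8, 34.6 and 44.3 TPM in the Braf tumours, 24.6 to 49.7 TPM (median 37.2) in the Tert-123 tumours, 92.1, 10.99, 21.98 and 20.4 TPM in the K5-Tert tumours and 22.4, 16.4 and 18.2 TPM in the pools, a difference of 0.83 (SE 0.37, limma adjusted p = 0.107) that passed under the same scaling (0.81, adjusted p = 0.0331). Within a library the ratio of Itgb4 to Itga6 was 0.88 to 1.69 in the tumours and 0.48, 0.32 and 0.33 in the wild-type, Tert-123C>T and K5-Tert pools. The ratio of Itga3 to Itga6 was 2.37 to 5.23 in the tumours and 0.90, 0.56 and 1.503 in those pools. Neither ratio overlapped, and both were chosen after their values had been seen.

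**Figure D3:**
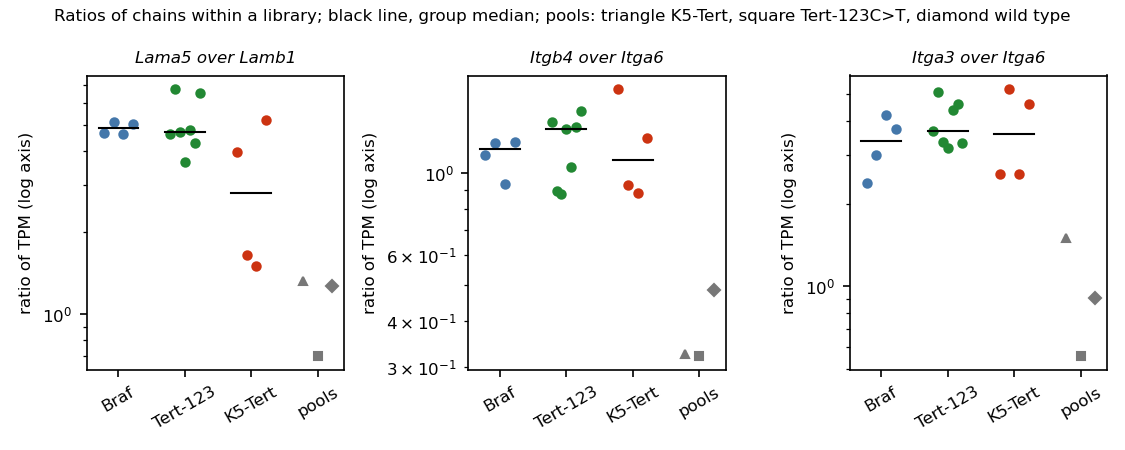
Ratios of TPM between 2 chains or subunits of the same library on a log axis, with libraries as points, the median of each tumour genotype as a black line and the pools as separate symbols. In all 3 ratios every tumour lies above every pool, with Itgb4 over Itga6 at 0.88 and more in the tumours against 0.48 and less in the pools.

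Itga7, the laminin-binding alpha subunit of muscle, was at 2.36 to 8.42 TPM in the tumours and at 0.996, 0.94 and 3.82 TPM in the pools. It lay below the filter at 10 TPM, and rose by 1.03 with the Braf mutation when the filter was lowered to 2 TPM (SE 0.34, limma adjusted p = 0.028), where 15.6% of all genes rose. Of the pools only the K5-Tert pool reached 2 TPM, so Itga7 could pass that filter through the tumours alone.

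Among the beta subunits, Itgb1, the partner of most alpha subunits, was at 137, 197, 186 and 166 TPM in the Braf tumours, 142 to 197 TPM (median 164) in the Tert-123 tumours, 219.9, 89.4, 174 and 108 TPM in the K5-Tert tumours and 135, 120.2 and 152 TPM in the pools. The pools lay inside the range of the tumours, and the difference of 0.24 (SE 0.23) did not pass (limma adjusted p = 0.497). Itgb5, which pairs with alphav to bind vitronectin, was at 93.5, 126, 97.5 and 103 TPM in the Braf tumours, 98.4 to 194 TPM (median 113) in the Tert-123 tumours, 203, 66.999, 129 and 91.3 TPM in the K5-Tert tumours and 43.5, 67.8 and 40.2 TPM in the pools. Only K5-Tert tumour 2 lay below the highest pool, by less than 1 TPM. Itgb5 rose by 1.20 with the Braf mutation (SE 0.26, limma adjusted p = 0.00147), and it did so when any 1 of the 18 libraries was left out (1.07 to 1.35).

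The upstream sequences of Itga3 and Itgb5, the most abundant alpha and beta subunits that rose with the Braf mutation, are shown because the genes rose together. They are the 250 bases before the annotated start in RefSeq (build GRCm38.p6), which held an entry for 23 of the 36 members. Capitals mark matches on either strand to GGGCGG, the GC box, to TGANTCA, the AP-1 element, and to GAGGAA, the core bound by PU.1; no match overlaps another.
Itga3, chr11:95076715-95076964, minus strand: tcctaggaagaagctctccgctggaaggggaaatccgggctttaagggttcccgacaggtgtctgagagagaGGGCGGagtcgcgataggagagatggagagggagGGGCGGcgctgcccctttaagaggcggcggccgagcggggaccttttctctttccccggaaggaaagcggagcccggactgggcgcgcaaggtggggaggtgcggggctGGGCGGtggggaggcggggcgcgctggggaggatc
Itgb5, chr16:33829415-33829664, plus strand: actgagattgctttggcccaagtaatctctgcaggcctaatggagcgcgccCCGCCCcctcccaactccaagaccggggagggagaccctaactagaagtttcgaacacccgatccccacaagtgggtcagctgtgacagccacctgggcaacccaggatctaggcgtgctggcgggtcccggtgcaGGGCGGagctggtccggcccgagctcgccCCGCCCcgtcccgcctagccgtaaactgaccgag
Each held 3 GC boxes and neither of the other motifs, at 67.6% and 65.2% G and C against a median of 52.4% over all 32851 entries. A GC box stood in 32.7% of all entries, and in 8 of the 23 members' sequences. A match is a description of the letters only.

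The receptors that bind the RGD motif of fibronectin and vitronectin share the alphav, alpha5, alpha8 and alphaIIb subunits. Itgav was at 54.6, 92.6, 72.3 and 68.7 TPM in the Braf tumours, 53.3 to 88.99 TPM (median 65.6) in the Tert-123 tumours, 112, 26.5, 46.3 and 41.5 TPM in the K5-Tert tumours and 33.3, 35.2 and 72.5 TPM in the pools, with the K5-Tert pool above most tumours. Its difference with the Braf mutation was 0.48 (SE 0.32, limma adjusted p = 0.297). Itga5, the fibronectin receptor's alpha subunit, was at 16.1, 11.99, 13.3 and 14.3 TPM in the Braf tumours, 4.82 to 39.5 TPM (median 15.6) in the Tert-123 tumours, 21.2, 10.04, 28.3 and 10.9 TPM in the K5-Tert tumours and 6.45, 22.5 and 3.82 TPM in the pools. It was highest in Tert-123 tumour 4 and in K5-Tert tumour 3, and its difference of 0.73 (SE 0.44) did not pass (limma adjusted p = 0.244). Itga2b, the platelet subunit, stayed at 0.14 to 5.09 TPM in the tumours and at 1.68, 1.09 and 4.10 TPM in the pools. Itga8 reached 10.5 TPM in Braf tumour 2 and 0.33 to 2.51 TPM in the other tumours.

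Itgb6, Itgb8 and Itgb3, which also pair with alphav, were lower than Itgb5. Itgb6, an epithelial subunit known for activating latent TGF-beta, was at 10.9, 16.2, 16.4 and 13.6 TPM in the Braf tumours, 8.31 to 17.1 TPM (median 11.7) in the Tert-123 tumours, 40.7, 3.45, 8.17 and 9.18 TPM in the K5-Tert tumours and 7.59, 4.59 and 20.8 TPM in the pools. K5-Tert tumour 1 held the most of any library. The basal keratinocyte genes Krt5 and Krt14 were also highest in that tumour, at 29.2 and 61.8 TPM against at most 7.48 and 14.997 TPM in the other tumours. In the wild-type, Tert-123C>T and K5-Tert pools Krt5 was at 13.0, 26.1 and 6.07 TPM and Krt14 at 10.4, 15.5 and 5.97 TPM. Among the pools, the K5-Tert pool held the most Itgb6 and the least Krt5 and Krt14. The part of basal keratinocytes in the level of Itgb6 was not tested. Itgb8 was at 1.27 to 16.6 TPM in the tumours and at 12.2, 7.02 and 17.1 TPM in the pools, a difference of -0.96 (SE 0.47, limma adjusted p = 0.141). Itgb3 was at 1.52 to 8.45 TPM in the tumours and at 0.88, 8.22 and 0 TPM in the pools.

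The collagen receptors were minor. Itga1 was at 8.75, 8.85, 7.22 and 11.7 TPM in the Braf tumours, 5.37 to 11.4 TPM (median 8.37) in the Tert-123 tumours, 8.01, 6.55, 12.1 and 6.29 TPM in the K5-Tert tumours and 10.998, 22.9 and 7.78 TPM in the pools, and its difference of -0.56 (SE 0.29) did not pass (limma adjusted p = 0.17). Itga2 was at 4.62, 6.95, 3.92 and 6.20 TPM in the Braf tumours, 1.70 to 11.4 TPM (median 4.17) in the Tert-123 tumours, 5.42, 0.70, 2.84 and 1.81 TPM in the K5-Tert tumours and 0, 0.83 and 0.99 TPM in the pools. With the filter at 2 TPM, Itga2 rose by 1.62 (SE 0.41, limma adjusted p = 0.00561), where 15.6% of all genes rose; all 3 pools were under 2 TPM, so it passed that filter through the tumours alone. Itga11, a fibroblast subunit, was at 0.43 to 6.17 TPM in 14 tumours and at 18.6 TPM in Tert-123 tumour 4, which also had the highest sum of fibroblast markers (2379 TPM against 88.97 to 1676 TPM in the other tumours). Itga10 stayed at or below 2.47 TPM.

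Itga4, which pairs with beta1 or beta7 to bind VCAM1, was at 8.39, 4.68, 10.7 and 7.94 TPM in the Braf tumours, 6.39 to 8.004 TPM (median 7.09) in the Tert-123 tumours, 3.52, 3.16, 7.84 and 1.71 TPM in the K5-Tert tumours and 9.95, 4.25 and 7.42 TPM in the pools, so tumours and pools overlapped. Itga9 was at 4.47, 4.10, 3.62 and 2.95 TPM in the Braf tumours, 1.07 to 5.51 TPM (median 3.10) in the Tert-123 tumours and 2.58, 2.51, 3.38 and 1.15 TPM in the K5-Tert tumours, and only the Tert-123C>T pool reached 10 TPM (1.56, 10.7 and 0 TPM in the pools).

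The leukocyte integrins Itgb2, Itgax and Itgal had their highest levels in the same few tumours. Itgb2 encodes the beta2 subunit shared by a group of leukocyte receptors, and Itgax, Itgal, Itgam and Itgad encode its alpha partners. Itgb2 was at 32.6, 20.4, 27.7 and 40.8 TPM in Braf tumours 1 to 4, 7.61 to 144 TPM (median 31.2) in the Tert-123 tumours, 29.2, 13.7, 127 and 12.7 TPM in K5-Tert tumours 1 to 4 and 0, 19.1 and 1.86 TPM in the pools. Itgax, the alpha subunit of macrophages and dendritic cells, was at 23.3, 12.001, 13.5 and 17.6 TPM in the Braf tumours, 3.52 to 69.7 TPM (median 18.8) in the Tert-123 tumours, 14.95, 4.31, 83.9 and 4.59 TPM in the K5-Tert tumours and 0.24, 3.69 and 0.15 TPM in the pools. Both were highest in Tert-123 tumours 4 and 6 and K5-Tert tumour 3. With the Braf mutation Itgb2 rose by 2.94 (SE 0.73, limma adjusted p = 0.00424) and Itgax by 3.09 (SE 0.71, limma adjusted p = 0.00222). Itgax was under 10 TPM in all 3 pools, so it passed the filter through the tumours alone. Itgb2 reached 10 TPM in the Tert-123C>T pool only. It too could pass through the tumours alone, since only 3 pools exist and 4 libraries were required.

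The same 3 tumours had the highest sums of 9 macrophage markers, 5188, 2279 and 3418 TPM, against 215 to 1809 TPM in the other 12 tumours and 53.2 to 242 TPM in the pools. C1qa, a macrophage complement gene, was at 214, 118 and 205 TPM there, and Lyz2 at 4275, 1787 and 2607 TPM. No marker of the 9 was at 0 in any of those 3 tumours. In a fit without these 3 tumours Itgb2 rose by 2.50 (SE 0.58, limma adjusted p = 0.00294). Itgax rose by 2.60 in that fit (SE 0.51, limma adjusted p = 0.000643). The 3 tumours were left out after their levels had been seen. The macrophage markers remain higher in the other tumours than in 2 of the pools, and their part in the rise was not tested.

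**Figure D4:**
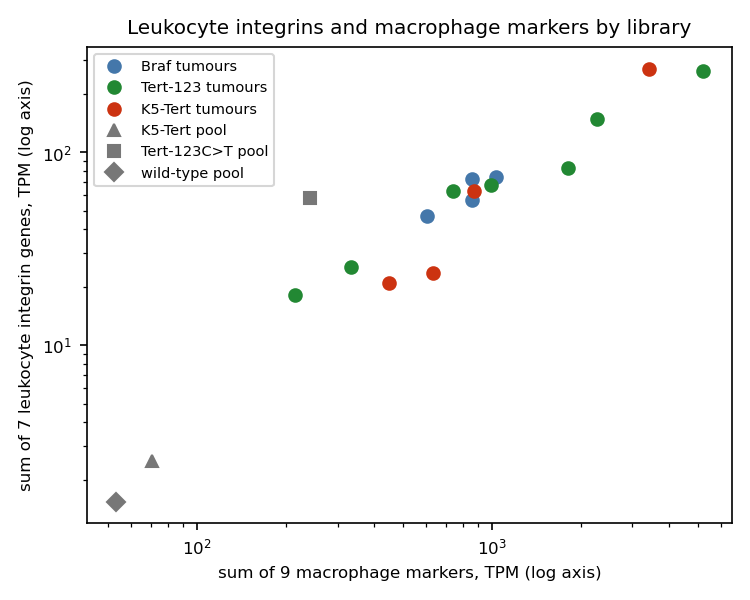
Sum of the 7 leukocyte integrin genes (Itgb2, Itgb7, Itgax, Itgal, Itgam, Itgae and Itgad) against the sum of 9 macrophage markers, both in TPM on log axes, with 1 point per library coloured by group. Over the tumours the integrin sum runs from 18.2 to 272 TPM and both sums are high in the same 3 tumours; the Tert-123C>T pool has 58.4 TPM of integrin at 242 TPM of markers.

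Of the other leukocyte subunits, Itgal was highest in the same 3 tumours, while Itgam, Itgb7, Itgae and Itgad were not. Itgal was at 7.63, 4.75, 4.65 and 8.51 TPM in the Braf tumours, 1.04 to 16.1 TPM (median 6.11) in the Tert-123 tumours, 3.32, 1.12, 22.3 and 0.32 TPM in the K5-Tert tumours and 0.49, 10.6 and 0.50 TPM in the pools, a difference of 0.89 (SE 0.73) that did not pass (limma adjusted p = 0.414). Itgb7, the partner of alpha4 and alphaE in lymphocytes, was at 2.20, 3.11, 3.78 and 3.09 TPM in the Braf tumours, 1.87 to 7.46 TPM (median 3.49) in the Tert-123 tumours, 1.999, 2.15, 11.7 and 0.56 TPM in the K5-Tert tumours and 0.60, 19.4 and 0 TPM in the pools. The Tert-123C>T pool held the most Itgb7 of any library, and its Itgal was exceeded only in Tert-123 tumours 4 and 6 and K5-Tert tumour 3. In that pool the sum of 6 T cell markers was 181 TPM, against 3.37 to 33.9 TPM in the tumours and 1.22 and 9.61 TPM in the other pools, and their part in these levels was not tested. Itgam was at 1.26 to 17.9996 TPM in the tumours and at 0.22, 0.87 and 0 TPM in the pools, so every tumour lay above every pool, and with the filter at 2 TPM it rose by 2.05 (SE 0.54, limma adjusted p = 0.00744), where 15.6% of all genes rose. All 3 pools were under 2 TPM for Itgam too, so it passed that filter through the tumours alone. Itgam was highest in K5-Tert tumour 3 and Tert-123 tumour 4, and Tert-123 tumour 6 (6.03 TPM) lay below K5-Tert tumour 1 (12.3 TPM) and Tert-123 tumour 7 (9.98 TPM). Itgae was at 0.87 to 8.71 TPM and Itgad at 0 to 3.05 TPM in the tumours.

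The upstream sequences of Itgax and Itgam, which lie on the same chromosome and were both highest in K5-Tert tumour 3 and Tert-123 tumour 4, are shown with the same motifs in capitals.
Itgax, chr7:128129300-128129549, plus strand: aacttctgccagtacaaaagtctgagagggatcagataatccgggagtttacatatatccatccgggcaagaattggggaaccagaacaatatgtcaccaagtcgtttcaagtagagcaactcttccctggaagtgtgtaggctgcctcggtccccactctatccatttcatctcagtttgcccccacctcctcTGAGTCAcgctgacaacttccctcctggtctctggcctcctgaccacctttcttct
Itgam, chr7:128062390-128062639, plus strand: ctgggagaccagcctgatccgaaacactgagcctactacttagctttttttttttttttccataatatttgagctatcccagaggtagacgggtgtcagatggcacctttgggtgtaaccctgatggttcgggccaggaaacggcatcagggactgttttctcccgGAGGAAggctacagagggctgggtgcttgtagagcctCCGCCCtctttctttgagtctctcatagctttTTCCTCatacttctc
Itgax held 1 AP-1 element, the only one among the 23 members' sequences, against 6.75% of all entries. Itgam held 2 PU.1 cores and 1 GC box, and a PU.1 core stood in 11 of the 23 members and in 23.3% of all entries. These are matches of letters, not sites of binding.

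Under the TMM-type scaling 6 of the 19 members rose with the Braf mutation and 5 fell, against 21.6% and 18.8% of all genes, the added members being Lama5 and Itgb4 higher and Itga6, Itgb8 and Lamb2 lower. The comparison rests on 3 single pools: without the Tert-123C>T pool Itga3 (0.69, adjusted p = 0.18) did not pass in limma, and without the wild-type pool neither Itga3 (1.07, adjusted p = 0.0639) nor Itgb2 (1.98, adjusted p = 0.104) passed. The mutation, the tumour itself and pooling cannot be told apart in these groups.

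Genes that act with the integrins were read from lists of 4 kinds, against 15.4% of all genes that rose and 10% that fell with the Braf mutation. Of 8 tested ligands other than laminins, 2 rose and 1 fell with the Braf mutation: osteopontin (Spp1) by 7.63 (SE 0.51, limma adjusted p = 2.83e-10), fibronectin (Fn1) by 4.82 (SE 0.55, limma adjusted p = 8.15e-07), and thrombospondin 1 (Thbs1), which fell by 2.56 (SE 0.34, limma adjusted p = 6.41e-06). Spp1 was at 266 to 4342 TPM in the tumours and 2.10 to 21.4 TPM in the pools, and Fn1 at 172 to 1789 TPM against 16.7 to 24.3 TPM. Thbs1 was at 66.3 to 280.4 TPM in the tumours and 652 to 1039 TPM in the pools. None of the 3 overlapped between tumours and pools, as for 5.71% (above) and 5.69% (below) of all genes tested. They were named because they passed the test on these same libraries, so this is a description. Among 8 hemidesmosome genes and other laminin receptors 1 rose and 0 fell. This was the proteoglycan syndecan-1 (Sdc1), from 4.69 to 6.65 TPM in the pools to 43.9 to 232 TPM in the tumours (4.07, SE 0.33, limma adjusted p = 4.75e-09). All 3 pools were under 10 TPM for Sdc1, so it passed the filter through the tumours alone. Under the TMM-type scaling 4 of the 8 rose (Plec, Cd151, Sdc1 and Sdc4) and 1 fell (Dag1), against 21.6% and 18.8% of all genes.

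Of 11 basement membrane partners of the laminins, 1 rose and 3 fell. Col18a1, which encodes a collagen of epithelial and vascular basement membranes, rose by 1.76 (SE 0.29, limma adjusted p = 7.46e-05), and Col4a3 and Col4a4, chains of one collagen IV network, fell by 1.90 (SE 0.45, limma adjusted p = 0.00286) and 2.29 (SE 0.43, limma adjusted p = 0.000358). Perlecan (Hspg2) fell by 1.06 (SE 0.32, limma adjusted p = 0.0169). Of 28 adaptors and focal adhesion genes 6 rose and 3 fell, led by the kinase Ptk2b (1.63, SE 0.24, limma adjusted p = 2.84e-05), tensin 1 (Tns1, -1.48, SE 0.25, limma adjusted p = 0.000113), the actin cross-linker Actn1 (1.68, SE 0.32, limma adjusted p = 0.000348) and Kank1 (-1.34, SE 0.30, limma adjusted p = 0.00163). Both shares are near those of all genes. Under the TMM-type scaling 9 of the 28 rose and 5 fell, and each gene given here with a fold kept its direction.

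Between the tumour genotypes few members differed. In K5-Tert against Braf tumours 1 of 17 members fell and 0 rose in limma (1 had an unadjusted p under 0.05), while 21.9% of all 7498 genes tested fell and 0.587% rose. Lama5 was the member that fell, by 1.17 (SE 0.33, limma adjusted p = 0.0214), with K5-Tert tumours 2, 3 and 4 below every Braf tumour and K5-Tert tumour 1 among them. The median difference of all genes was -0.48 and that of the 17 members -0.30, and relative to the all-gene median Lama5 stood at -0.69. Under the TMM-type scaling, which moved the all-gene median to 0.02, Lama5 was at -0.65 (adjusted p = 0.0804) and did not pass, and Itgb5 was higher by 0.63 (SE 0.19, limma adjusted p = 0.0351) where it had been at 0.11 (SE 0.29). The split of members called then turned from 0 higher and 1 lower to 1 higher and 0 lower, against 6.46% higher and 8.74% lower of all genes.

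**Figure D5:**
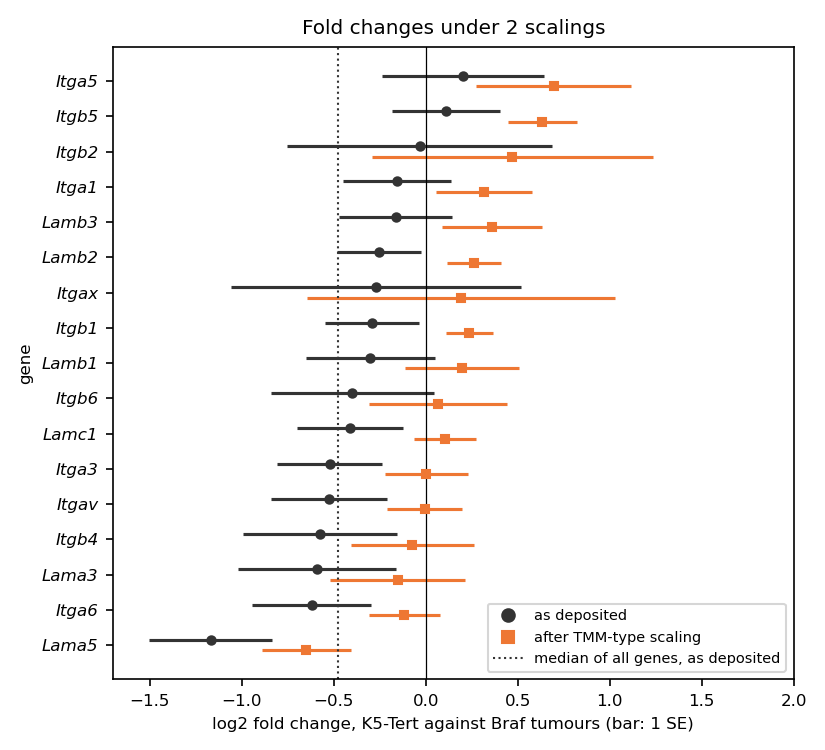
Log2 fold change of the 17 tested members in K5-Tert against Braf tumours, as deposited (circles) and after the TMM-type scaling (squares), with bars of 1 SE, and the median of all genes as deposited (dotted line at -0.48). As deposited 15 of the 17 lie below 0, and under both scalings Lama5 is the lowest.

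K5-Tert tumour 1 set this comparison apart. It held the highest level of 9 of the 36 members among the 15 tumours (Itgb1, Itgb5, Lamb3, Itgav, Lamc1, Itgb4, Itga6, Itgb6 and Lama3), and K5-Tert tumours 2 and 4 held the lowest level of 27. Without K5-Tert tumour 1, 8 members were lower than in the Braf tumours: Lama5 (-1.63), Itgb4 (-1.17), Lama3 (-1.10), Itga6 (-1.03), Itgb6 (-1.02), Itgav (-0.91), Itga3 (-0.78) and Lamc1 (-0.70). In that fit 46.9% of all genes were lower, so 8 of 17 is near the share of genes at large. Without K5-Tert tumours 2, 3 and 4, Lama5 was at 0.21, where the lone K5-Tert library is assumed to vary like the other groups. K5-Tert tumours 2, 3 and 4 lay below all 4 Braf tumours for 6 of the 17 members tested (Lama5, Itgav, Itgb4, Itga6, Itgb6 and Lama3), and for 47.2% of all genes tested.

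Against the Tert-123 tumours, the K5-Tert tumours were lower in 1 of 17 members and higher in 0 in limma (2 had an unadjusted p under 0.05), while 29.5% of all genes were lower and 0.76% higher. The member was again Lama5, lower by 1.20 (SE 0.30, limma adjusted p = 0.00948), and it passed under the TMM-type scaling (-0.68, adjusted p = 0.0425). The K5-Tert tumours are the same 4 libraries in both comparisons. With the filter at 2 TPM, Itga2b (-1.10, SE 0.30, limma adjusted p = 0.0167) and Itga4 (-0.82, SE 0.27, limma adjusted p = 0.0345) were lower too, where 24.2% of all genes were. Itga2b was under 2 TPM in every K5-Tert tumour, so it passed that filter through the other tumours alone. By a two-sided exact permutation test Itga2b had p = 0.00606 and Itga4 p = 0.0212, and no other of 57 such tests on the 19 members below the filter had a p under 0.05. The smallest adjusted p of these exact tests was 0.345. The libraries compared can be split in only 70 or 330 ways, so a lone member could not have passed 0.05 after this adjustment.

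Of the genes that act with integrins, the kinase FAK (Ptk2, -0.998, SE 0.27, limma adjusted p = 0.0186), Ptk2b (-0.83, SE 0.26, limma adjusted p = 0.0315) and Col4a5 (-0.90, SE 0.30, limma adjusted p = 0.0393) were lower in K5-Tert than in Braf tumours. Rpsa, listed as a laminin receptor and also a protein of the ribosome, was higher (0.90, SE 0.21, limma adjusted p = 0.0105). Under the TMM-type scaling Ptk2 stayed lower (-0.50, adjusted p = 0.0452) and Rpsa higher (1.43, adjusted p = 0.00261), and Ptk2b and Col4a5 did not pass. The same scaling added the laminin receptor Bcam (0.89, limma adjusted p = 0.0285) and the alphav ligand Mfge8 (1.09, limma adjusted p = 0.0148), both higher in K5-Tert than in Braf tumours. Against the Tert-123 tumours, 7 of 26 adaptors fell, a share not above the 29.5% of all genes that were lower. They were led by Ptk2b (-0.89, SE 0.23, limma adjusted p = 0.012), Tns1 (-0.71, SE 0.22, limma adjusted p = 0.024), Ptk2 (-0.77, SE 0.24, limma adjusted p = 0.0246) and Actn1 (-0.87, SE 0.27, limma adjusted p = 0.0249), and Spp1 (-1.34, SE 0.40, limma adjusted p = 0.0193) and Col4a6 (-0.87, SE 0.32, limma adjusted p = 0.0441) fell as well. Rpsa was higher (0.85, SE 0.19, limma adjusted p = 0.00621). None of the falls passed under the TMM-type scaling, and Rpsa did (1.38, adjusted p = 0.00121). Under that scaling Icam1, a ligand of the beta2 integrins (0.82, limma adjusted p = 0.0191), and Mfge8 (0.79, limma adjusted p = 0.0289) were higher than in the Tert-123 tumours.

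In Tert-123 against Braf tumours no member of 17 passed, nor did any of the 7498 genes tested in limma (background 0%). At an unadjusted p under 0.05 there were 0 members and 50 genes, and the smallest unadjusted limma p of a member was 0.174. The levels of the 2 genotypes overlapped for every member tested.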

How the data were processed

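The members and the gene lists were chosen with earlier results of these data known. Of the 37 genes the rule found, 1 is not reported here and enters none of the counts of members. Thyrocytes sorted by YFP were sequenced in 18 libraries, and the authors deposited 1 table of normalized values for 23652 entries. No header or label names the unit; it was taken as TPM from the deposited values, since every library sums to 1000000 and at most 2.24% of a library's values are whole multiples of its smallest value (tolerance 0.01), so counts could not be recovered. Aligner, annotation and build were not given in the sources used here. Symbols read as dates made 26 entries unusable, at most 0.0455% of any library, and these were dropped. Genes at 10 TPM or more in at least 4 libraries entered limma (version 3.58.1, R 4.3.3) as log2(TPM + 1); its two-sided test used a mean-variance trend, and the Benjamini-Hochberg adjustment covered every gene tested. The 3 tumour comparisons shared a fit of 15 libraries (12 residual degrees of freedom, 7498 genes). The Braf mutation was fitted over 18 libraries with the Tert allele as a term (14 residual degrees of freedom, 7825 genes). Members below the filter were tested by exact permutation. Every member reported is named with its level; the most abundant 2 of each role group, members past the threshold and members held at 10 TPM only by a pool are given by library, and up to 4 genes of a pathway list by smallest p. Of the 16 listed ligands 14 were in the table. The TMM-type scaling trims 30% of ratios and 5% of levels on either side. The fits were tested on simulated data. Other pseudocounts, filters, scalings, weights, covariates and left-out libraries were tried. Depth per library is unknown.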

Additional observations from a re-analysis of the deposited data

Results flagged for a closer look

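In each tumour genotype of 4 or 7 libraries, the highest and lowest library of each member was set against the group's range by Dixon's test at 95%. Of 108 groups of libraries 13 held a library that stood apart. Chance gives about 1 in 20 for independent groups of normally distributed values. The test used TPM without logs, and the members share the same libraries, so the count cannot be weighed against that rate. K5-Tert tumour 1 stood apart among the K5-Tert tumours in Lama5 (125 TPM), Itgb4 (92.1 TPM) and Itgb6 (40.7 TPM), each above the other 3. K5-Tert tumour 3 stood apart in the same genotype in 5 leukocyte subunits: Itgb2 (127 TPM), Itgax (83.9 TPM), Itgal (22.3 TPM), Itgb7 (11.7 TPM) and Itgae (8.71 TPM). Tert-123 tumour 4 stood apart among the Tert-123 tumours in Lama4 (25.2 TPM), Itga11 (18.6 TPM), Itga2 (11.4 TPM), Itgad (3.05 TPM) and Lamc3 (1.37 TPM). All 13 were high, and the 4 Braf tumours held none.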

How the results depend on the processing

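No paired analysis was possible because the labels carry no replicate numbers shared between genotypes; the numbers used here follow the order of the samples. Every alternative named below with K5-Tert tumours left out, with the length trend removed, or with 2 choices together was chosen after seeing the data. For the Braf mutation, 4 of 19 members were higher and 2 lower, against 15.4% and 10% of all genes. With the filter at 2 TPM the counts were 7 and 2 of 32 members, against 15.6% and 10.8% of all genes. With the filter at 50 TPM they were 2 and 0 of 8 members, against 439 and 189 of 1749 genes. TMM-type scaling gave 6 and 5 of 19, against 21.6% and 18.8%. Quantile normalization gave 6 and 4 of 19, against 16.9% and 18.3%. Rescaling without Rpph1 gave 7 and 3 of 28, against 20.9% and 14.4%. Library weights gave 12 and 2 of 19, against 42.5% and 13.6%. With the length trend removed 8 and 3 were called, against 1339 and 1931 of 7773 genes. The filter at 2 TPM with TMM-type scaling gave 11 and 4 of 32, against 21.6% and 16.6%. Without K5-Tert tumours 2 and 4 there were 8 and 2 of 19, against 1854 and 833 of 7825 genes. Leaving out 1 library gave 2 to 6 higher and 2 to 3 lower, the fewest without the wild-type pool. Over these fits 768 to 1826 of 7825 genes rose and 469 to 901 fell. Itgax lost its call under quantile normalization alone (1.61, adjusted p = 0.0804). For K5-Tert against Braf tumours, 0 of 17 members were higher and 1 lower, against 0.587% and 21.9% of all genes. With the filter at 2 TPM 2 of 32 were lower, against 18.8% of all genes. With library weights 10 of 17 were lower, against 64.7% of all genes. There were 0 lower with TMM-type scaling (8.74% of all genes) and with quantile normalization (6.27%). Only the groups compared (467 of 7498 genes) and Xist as a covariate (225 of 7498 genes) also gave 0 lower. The length trend removed (396 of 7447 genes) and K5-Tert tumours 2 and 4 left out (16 of 7498 genes) gave 0 as well. There was 1 higher with TMM-type scaling, against 6.46% of all genes with the filter at 10 TPM and 4.03% with the filter at 2 TPM. Leaving out 1 library gave 0 to 8 lower and 0 higher: 8 without K5-Tert tumour 1, and 0 without Braf tumour 2 or 3 or K5-Tert tumour 2 or 4. Over these fits 397 to 3520 of 7498 genes were lower. Lama5 turned to 0.21 without K5-Tert tumours 2, 3 and 4, and Itgb5 to -0.23 with library weights; with 1 library left out Itgb5 ran from -0.17 (without K5-Tert tumour 1) to 0.36. For K5-Tert against Tert-123 tumours, 0 of 17 members were higher and 1 lower, against 0.76% and 29.5% of all genes. With no filter 2 of 36 were lower, against 2088 of 22688 genes. The filter at 2 TPM gave 3 of 32 lower (24.2% of all genes) and library weights 8 of 17 (61.9%). With the length trend removed 0 were lower (478 of 7447 genes) and 1 higher, Lamb2 (347 of 7447 genes). The filter at 2 TPM with TMM-type scaling gave 0 lower (5.72% of all genes). Leaving out K5-Tert tumours 2 and 4 also gave 0 lower (19 of 7498 genes). Leaving out 1 library gave 0 to 7 lower and 0 higher: 7 without K5-Tert tumour 1, 2 without Braf tumour 1 or the first Tert-123 tumour, and 0 on dropping K5-Tert tumour 2 or 4. Over these fits 552 to 3938 of 7498 genes were lower. Lama5 turned to 0.18 without K5-Tert tumours 2, 3 and 4. For Tert-123 against Braf tumours every alternative gave 0 members. The cause of these changes was not tested. Depth is unknown, so low members carry no counting error; the members tested had a median longest transcript of 4867 bases against 3247 for all genes tested, and removing the trend with length brought Lama5 to -0.31 (adjusted p = 0.269) against Braf tumours.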

Other observations

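The members differed widely in how steady they were over the 15 tumours. The highest level was 2.001 times the lowest for Lamb2, 2.25 times for Itga1, 2.46 times for Itgb1 and 2.57 times for Itga3. For the leukocyte subunits it was 70.2 times for Itgal, 23.8 times for Itgax and 18.9 times for Itgb2, and for the fibroblast subunit Itga11 43.04 times. Summed over the 36 members, K5-Tert tumour 1 held the most (1441 TPM) and K5-Tert tumour 2 the least (484 TPM), with the pools at 681, 785 and 851 TPM (wild type, Tert-123C>T and K5-Tert). The summed chains of laminin-511 ran from 65.7 to 241 TPM in the tumours.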
